A study of Rattus norvegicus with 10 samples.

Results

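The genes followed here make nicotinamide adenine dinucleotide (NAD) or break down tryptophan and nicotinamide: Tdo2, Kmo, Haao, Acmsd, Qprt, Nmnat1, Nmnat3, Naprt, Nampt and Nnmt. They were chosen by gene symbol, and a probe was taken as theirs when its accession belongs to that gene in RefSeq. Of these 10 genes, 9 were among the 13837 named genes with a probe on the array, with 10 of the 41012 probes because Nampt has 2. No probe was matched to Nmnat3, a mitochondrial NAD-forming enzyme, which is not analysed here. All 10 probes lay well above background on all 10 arrays, so none was lost to the filter on dim probes that left 22991 probes for testing.

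Liver RNA of 10 male Sprague Dawley rats was measured on one-colour Agilent Whole Rat Genome arrays, 1 array per rat. The 3 control rats received the solvent alone, propylene glycol. The 4 SM rats received a single subcutaneous dose of sulfur mustard (SM), an alkylating vesicant, at 3.5 mg/kg, which is 0.7 of the LD50. The 3 SM + MSTF rats received the same SM dose and, 1 h later, 120 mg/kg of MSTF by the intragastric route, and all livers were taken 24 h after SM. MSTF combines flavonoids from Anemarrhena asphodeloides with salvianolic acids from Salvia miltiorrhiza. There was no group given MSTF without SM, so MSTF is seen only on top of SM.

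Liver makes NAD by several routes. In the long route, tryptophan is opened by Tdo2, hydroxylated and cleaved through Kmo and its neighbours, and turned by Haao into an unstable intermediate that either goes through Qprt towards NAD or is drawn off by Acmsd towards complete oxidation. In the shorter routes Naprt starts from nicotinic acid and Nampt from nicotinamide, the product that NAD-consuming enzymes leave behind, and the Nmnat enzymes serve all of these routes. Nnmt methylates nicotinamide, which takes it out of the salvage route. Parp1 and Parp2 consume NAD when they answer broken or alkylated DNA, the kind of lesion that SM makes. The arrays measured transcripts only, and neither NAD nor enzyme activity.

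Between 51.9% and 61.4% of probes lay well above background on an array, the median signal was 2.20 to 2.54 times the local background, and no spot was saturated. The slides and the groups were partly tied together. The controls shared slide 1 with SM + MSTF replicate 3, the SM rats had slide 2 to themselves, and SM + MSTF replicates 1 and 2 were on slide 3. An effect of SM and one of its slide cannot be told apart. SM + MSTF replicate 3 stood apart from its group: across probes its mean Pearson correlation with the other arrays of its group was 0.978, against 0.983 to 0.990 for the other 9 arrays. Replicates 1 and 2, on 1 slide, had a correlation of 0.988. As replicate 3 was on another slide, a difference of that rat and one of its slide cannot be told apart here. All 6 hepatocyte markers with a probe were well above background on every array, and none was called. In SM + MSTF versus control 2 of the 6 were lower at an unadjusted p under 0.05, Ttr (log2 change -0.49) and Apoa1 (-0.43), both with an adjusted p of 0.423 (limma). The summed intensity of the 6 was 946804 to 1061550 in control, 912606 to 1006630 in SM and 807194 to 974500 in SM + MSTF. Values below are log2 signals after quantile normalization. Each gene has its own probe, so a level in 1 gene cannot be set against that of another.

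None of the 9 genes was called changed in any of the 3 comparisons, which took both an adjusted p below 0.05 and a 1.5-fold difference or more (limma, Benjamini-Hochberg over all 22991 probes). The shares called over all probes were 2.41% for SM versus control, 0% for SM + MSTF versus control and 1.26% for SM + MSTF versus SM. At an unadjusted p under 0.05, limma counted 1 of 9 genes in SM versus control, Naprt, and 0 of 9 in the other comparisons. The shares over all probes were 16.4%, 9.54% and 15.9% in the same order. The methods' t-test, with an unadjusted p under 0.05 and the 1.5-fold minimum, called 1 of 9 genes in SM versus control, Acmsd, where it called 4.92% of all probes. It called none of the 9 when SM + MSTF was compared with control or with SM, beside 1.24% and 3.75% of all probes, and with no fold minimum it counted 2, 1 and 0 of 9.

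**Figure D1:**
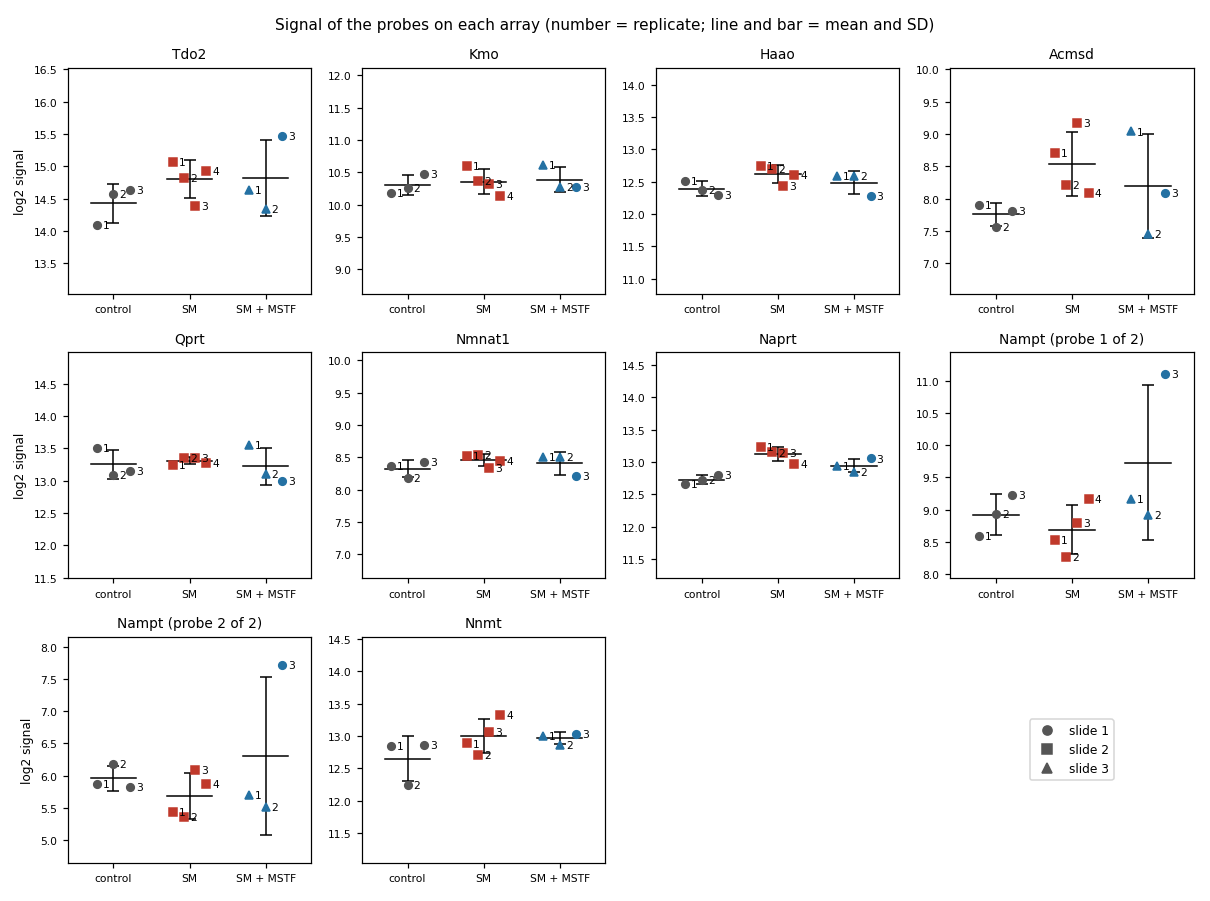
Log2 signal of the 10 probes (vertical axis, the same span in each panel) on each array, by group. Symbols are single rats numbered by replicate, the shape gives the slide, and lines with bars are the group mean and SD. Naprt of SM lies above all control arrays, and SM + MSTF replicate 3 stands above all other arrays for both Nampt probes.

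Tdo2, the dioxygenase that opens the tryptophan ring, is largely a hepatocyte gene (probe A_42_P800916). Its log2 signal was 14.09, 14.57 and 14.64 in control replicates 1 to 3, 15.06, 14.83, 14.38 and 14.92 in SM replicates 1 to 4, and 14.63, 14.34 and 15.47 in SM + MSTF replicates 1 to 3. Of the SM arrays, 3 lay above all controls and replicate 3 among them, while in SM + MSTF replicate 3 was the highest of the 10 arrays and its other rats lay within the control range. The log2 change was 0.37 ± 0.27 (SE) in SM versus control, with a 95% interval of -0.24 to 0.98 and an adjusted p of 0.558 (limma). It was 0.38 ± 0.29 in SM + MSTF versus control (adjusted p = 0.702, limma) and 0.014 ± 0.27 in SM + MSTF versus SM (adjusted p = 0.985, limma). Without SM + MSTF replicate 3, the change of SM + MSTF versus control was 0.052 and that of SM + MSTF versus SM was -0.32, and without control replicate 1 the change of SM versus control was 0.20.

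Kmo, the hydroxylase that commits kynurenine to the NAD branch, varied little between groups (A_44_P496572). Kmo read 10.18, 10.26 and 10.47 in the controls, 10.60, 10.37, 10.32 and 10.13 in SM, and 10.61, 10.27 and 10.27 in SM + MSTF. The groups overlapped, with group means of 10.30, 10.36 and 10.39. The 95% intervals of its log2 change ran from -0.26 to 0.37 in SM versus control, from -0.25 to 0.42 in SM + MSTF versus control and from -0.28 to 0.34 in SM + MSTF versus SM.

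Haao, the dioxygenase whose product stands at the fork between NAD and oxidation, read 12.52, 12.36 and 12.30 in the controls (A_44_P304387). It read 12.74, 12.70, 12.44 and 12.60 in SM, and 12.59, 12.59 and 12.27 in SM + MSTF. In SM 3 of 4 arrays lay above all controls, and SM + MSTF replicate 3 was the lowest of the 10 arrays. The log2 change of SM versus control was 0.23 ± 0.12 (SE), with a 95% interval of -0.037 to 0.49 and an adjusted p of 0.385 (limma). The changes of SM + MSTF were 0.091 ± 0.13 against control and -0.14 ± 0.12 against SM (adjusted p = 0.846 and 0.577, limma).

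Qprt, which takes quinolinic acid into the NAD route, was the steadiest gene within SM (A_42_P505241). Its log2 signals were 13.51, 13.09 and 13.15 in the controls, 13.24, 13.35, 13.36 and 13.28 in SM, and 13.55, 13.11 and 13.00 in SM + MSTF. All SM arrays lay inside the control range. The log2 change was 0.054 ± 0.15 (SE) for SM against control, -0.031 ± 0.16 for SM + MSTF against control and -0.086 ± 0.15 for SM + MSTF against SM, with adjusted p of 0.895, 0.964 and 0.800 (limma).

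Acmsd, the decarboxylase that draws the shared intermediate away from NAD, had the largest log2 change of the 9 genes in SM versus control and was uneven between rats (A_43_P13249). It read 7.90, 7.56 and 7.80 in the controls, 8.70, 8.21, 9.16 and 8.09 in SM, and 9.04, 7.45 and 8.09 in SM + MSTF. Every SM array lay above every control, with the closest pair 0.18 apart on the log2 scale. Within SM + MSTF, replicate 2 was the lowest of all 10 arrays and replicate 1 exceeded 3 of the 4 SM arrays. The log2 change of SM versus control was 0.79 ± 0.36 (SE), or 1.72-fold, with a 95% interval of -0.027 to 1.60. Its adjusted p was 0.323 in limma, and the methods' t-test, which called it at the unadjusted threshold, gave an adjusted p of 0.290. In SM + MSTF the log2 change was 0.44 ± 0.39 against control (adjusted p = 0.746, limma) and -0.35 ± 0.36 against SM, with an interval of -1.16 to 0.46 (adjusted p = 0.650, limma). Those values turned on single rats: without SM + MSTF replicate 1 they were 0.015 and -0.77, and without replicate 2 they were 0.81 and 0.024.

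Naprt, the entry enzyme for nicotinic acid, gave the smallest p-value of the 9 genes (A_44_P1049252). Naprt read 12.67, 12.72 and 12.79 in the controls, 13.24, 13.15, 13.14 and 12.97 in SM, and 12.93, 12.85 and 13.06 in SM + MSTF. All 4 SM arrays and all 3 SM + MSTF arrays lay above all 3 controls, while the SM + MSTF arrays overlapped those of SM. Group means were 12.73 ± 0.065 (SD, n = 3), 13.12 ± 0.11 (n = 4) and 12.94 ± 0.10 (n = 3). The log2 change of SM versus control was 0.40 ± 0.097 (SE), or 1.32-fold, with a 95% interval of 0.18 to 0.61. Its unadjusted p was 0.00237 and its adjusted p was 0.0668 (limma), so it passed neither the adjusted threshold nor the 1.5-fold minimum. Leaving out each array in turn gave log2 changes of 0.35 to 0.45 and adjusted p of 0.0543 to 0.208 (limma). The SM + MSTF change was 0.22 ± 0.10 against control (adjusted p = 0.543, limma) and -0.18 ± 0.097 against SM, with an interval of -0.39 to 0.039 (adjusted p = 0.385, limma). SM + MSTF replicate 3, which shares slide 1 with the controls, stood 0.33 above the control mean, and replicates 1 and 2 on slide 3 stood 0.21 and 0.12 above it. The moderated F-test over the 3 groups gave Naprt an adjusted p of 0.135 (limma), the smallest of the 9 genes, so none passed it, beside 2.07% of all probes. At an unadjusted p under 0.05 the F-test counted Naprt alone of the 9 genes, beside 17.0% of all probes.

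Nampt, the rate-limiting enzyme of nicotinamide salvage, was set apart by 1 rat. Its first probe (A_42_P570241) read 8.60, 8.93 and 9.23 in the controls, 8.53, 8.27, 8.79 and 9.17 in SM, and 9.16, 8.92 and 11.11 in SM + MSTF. The second probe (A_43_P18467) read 5.87, 6.19 and 5.83 in the controls, 5.44, 5.36, 6.09 and 5.88 in SM, and 5.70, 5.52 and 7.72 in SM + MSTF. On both probes SM + MSTF replicate 3 lay far above the other 9 arrays, which overlapped across groups. It exceeded their mean by 2.26 on the log2 scale (4.79-fold) on the first probe and by 1.96 (3.88-fold) on the second. Of the 22991 probes tested, 71 (0.309%) and 116 (0.505%) stood higher above the other 9 arrays in that rat. Tdo2 was 0.86 (1.82-fold) above its own mean of the other 9 arrays in the same rat, an excess that 3.48% of probes surpassed.

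**Figure D2:**
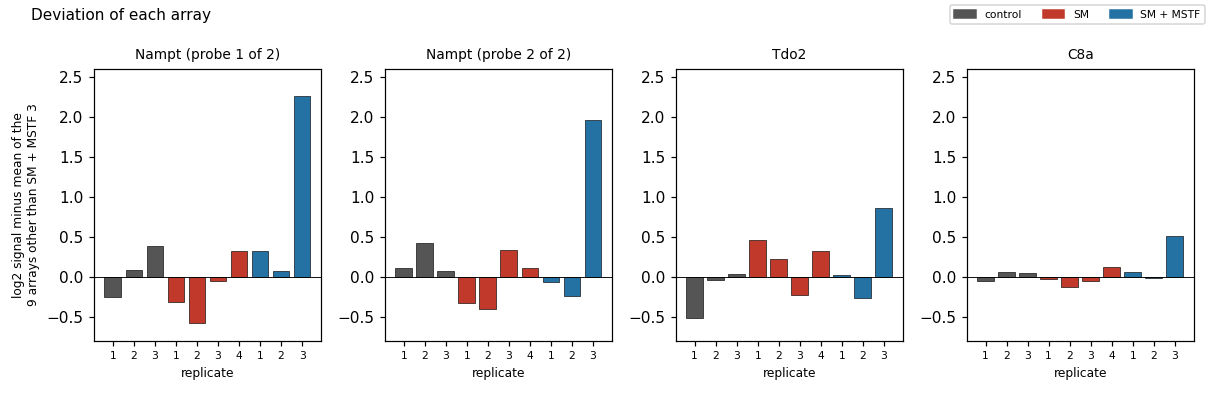
Log2 signal of each array (bars, numbered by replicate and coloured by group) minus the mean of the 9 arrays other than SM + MSTF replicate 3, for both Nampt probes, Tdo2 and C8a. SM + MSTF replicate 3 reaches 2.26 and 1.96 for Nampt, 0.86 for Tdo2, and is also the highest array for C8a.

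For the first Nampt probe the log2 change was -0.23 ± 0.47 (SE) for SM against control, 0.81 ± 0.50 for SM + MSTF against control and 1.04 ± 0.47 for SM + MSTF against SM. The adjusted p were 0.856, 0.639 and 0.319 (limma), and the 95% interval of the last change ran from -0.011 to 2.09. The second probe gave log2 changes of -0.27, 0.35 and 0.62, with adjusted p of 0.823, 0.849 and 0.518 (limma). Without SM + MSTF replicate 3 the first probe's changes of SM + MSTF were 0.12 against control and 0.35 against SM. On slide 1, the only slide with both groups, that rat stood 2.19 (4.55-fold) above the control mean on the first probe and 1.76 (3.38-fold) on the second. With slide as a fixed block, the comparison of SM + MSTF with control rests on that rat alone, which is then assumed to vary like the other groups. Nampt was called in that fit (log2 change 2.19 ± 0.34, adjusted p = 0.0282, limma), as were 1.27% of all probes. For SM + MSTF replicates 1 and 2 the difference from the control mean was 0.24 and -0.00128 on the first probe and -0.27 and -0.45 on the second. The probes had a Pearson correlation of 0.915 over the 10 arrays and of 0.467 over the 9 arrays without that rat.

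Nmnat1, the nuclear enzyme that forms NAD from its mononucleotide, showed narrow intervals (A_44_P281595). Its log2 signal was 8.36, 8.18 and 8.43 in the controls, 8.53, 8.53, 8.34 and 8.44 in SM, and 8.51, 8.51 and 8.21 in SM + MSTF. The groups overlapped, and SM + MSTF replicate 3 was below the other rats of its group. The 95% intervals of the log2 change were -0.11 to 0.39 in SM versus control, -0.18 to 0.35 in SM + MSTF versus control and -0.30 to 0.20 in SM + MSTF versus SM. Adjusted p were 0.600, 0.845 and 0.846 (limma).

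Nnmt, the methyltransferase that removes nicotinamide from salvage, read 12.85, 12.24 and 12.86 in the controls (A_42_P577421). It read 12.89, 12.71, 13.06 and 13.33 in SM, and 13.00, 12.86 and 13.04 in SM + MSTF. Control replicate 2 was the lowest of the 10 arrays. All 3 SM + MSTF arrays lay above the controls, but the closest pair differed by only 0.000133, and SM replicate 2 lay among the controls. The log2 change was 0.35 ± 0.18 (SE) in SM versus control, with a 95% interval of -0.068 to 0.76 and an adjusted p of 0.398 (limma). It was 0.32 ± 0.20 in SM + MSTF versus control (adjusted p = 0.643, limma) and -0.032 ± 0.18 in SM + MSTF versus SM (adjusted p = 0.944, limma). Without control replicate 2 the first of these was 0.14 and the second 0.11.

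**Figure D3:**
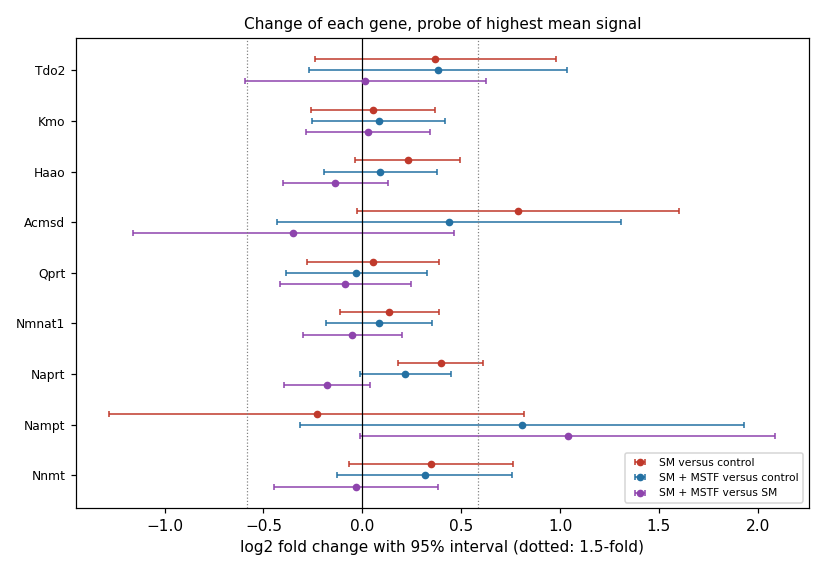
Log2 fold change (horizontal axis) of the 9 genes in the 3 comparisons, with the 95% interval of the limma fit and dotted lines at 1.5-fold. Naprt in SM versus control is the only interval that leaves out 0, and the intervals of Nampt, Acmsd and Tdo2 are the widest.

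Side by side, 8 of 9 genes were higher in SM than in control, Nampt being the exception, where 55.9% of all probes were higher. The median log2 change of the 9 genes was 0.23, beside 0.032 over all probes. Against control, 8 of 9 genes were also higher in SM + MSTF, all but Qprt, beside 50.9% of all probes, with medians of 0.22 and 0.00459. These comparisons share the control arrays. Over the alternatives run, 5 (with slide as a fixed block) to 9 of the genes were higher in SM + MSTF than in control, and their median ran from 0.038 without SM + MSTF replicate 1 to 0.33 with slide as a fixed block. For SM against control 7 to 8 genes were higher, with medians of 0.14 (without control replicate 2) to 0.29. Against SM, 3 of 9 genes were higher in SM + MSTF, beside 46.4% of all probes, and the medians were -0.050 and -0.022, with 2 to 5 genes and medians of -0.12 (75th percentile scaling) to 0.023 (without SM + MSTF replicate 2) over the alternatives. Groups did not overlap for 2 of 9 genes in SM versus control (Naprt and Acmsd) and for 2 in SM + MSTF versus control (Naprt and Nnmt), where 18.0% and 15.4% of all probes did not overlap. Between SM + MSTF and SM 0 of 9 did so, beside 14.7% of all probes.

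The median SE of these genes was that of the array as a whole: 0.15, 0.16 and 0.15 in the 3 comparisons, as for all probes. Single genes were less precise, with an SE of 0.47 to 0.50 for Nampt (first probe), 0.36 to 0.39 for Acmsd and 0.27 to 0.29 for Tdo2. For Nmnat1, Haao, Qprt and Kmo the 95% interval lay within 1.5-fold either way in all 3 comparisons. Naprt joined them in SM + MSTF versus control, and Naprt and Nnmt did in SM + MSTF versus SM. For the other genes and comparisons, changes beyond 1.5-fold in at least 1 direction were within the intervals.

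For the 3 genes with the smallest F-test p, Naprt, Nampt and Acmsd, the named probes most like them were sought by Pearson correlation of log2 signal over the 10 arrays. Nearest to Naprt were Nav2 (r = 0.971), Pitpnm2 (r = 0.963) and Adam23 (r = 0.956). Of these, Nav2 was called in SM versus control (log2 change 0.66, adjusted p = 0.0139, limma). The Nav2 and Pitpnm2 probes were dim, with control means of 4.99 and 4.66. The genes nearest to Nampt were C8a, a complement component made in liver (r = 0.984), Isy1 (r = 0.956) and Acer2 (r = 0.950), and without SM + MSTF replicate 3 their r were 0.898, 0.857 and 0.873. Among the probes nearest to Acmsd were Il13ra1 (r = 0.875) and Sfxn1 (r = 0.863). The highest of many probes is high by selection, and the arrays share slides and groups, so these r describe the 10 arrays only.

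A further 41 genes of tryptophan breakdown, NAD synthesis, NAD use and NADP metabolism were followed in the same way. Of these, 30 had a probe and 29 were tested, Ido1 being well above background on no array. None of the 29 was called in any comparison by limma or by the methods' t-test. At an unadjusted p under 0.05, limma counted 2 of 29 higher and 4 of 29 lower in SM versus control, beside 9.28% and 7.10% of all probes. For SM + MSTF it counted 0 higher and 3 lower against control (4.35% and 5.18% of all probes), and against SM 2 higher and 1 lower (6.23% and 9.70%). Their median log2 changes were -0.047, 0.064 and 0.037 in the 3 comparisons. Groups did not overlap for 7, 3 and 2 of the 29 genes in the same order, beside 18.0%, 15.4% and 14.7% of all probes.

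Among the tryptophan genes, Aadat, an aminotransferase that turns kynurenine into kynurenic acid, had the smallest p of the list in both comparisons with control (A_44_P991924). Aadat read 10.17, 9.99 and 9.90 in the controls, 9.70, 9.66, 9.62 and 9.53 in SM, and 9.47, 9.44 and 9.51 in SM + MSTF. No group overlapped another, but the closest SM and SM + MSTF arrays differed by only 0.0187 on the log2 scale. The share of all probes with all 3 groups apart was not computed. For Aadat the log2 change was -0.39 ± 0.092 (SE) in SM versus control (adjusted p = 0.0550, limma) and -0.55 ± 0.098 in SM + MSTF versus control (adjusted p = 0.348, limma). Against SM it was -0.15 ± 0.092 in SM + MSTF (adjusted p = 0.429, limma). By the moderated F-test over the 3 groups Aadat had an adjusted p of 0.0431 (limma), the only one of the 29 under 0.05, beside the 2.07% of all probes. That adjusted p was over 0.05 in 9 of 10 fits that left out 1 array, up to 0.133 without control replicate 2, and was 0.0435 in the remaining one, without SM + MSTF replicate 3. Kynu, the kynureninase of the long route, had a log2 change of -0.23 in SM versus control (adjusted p = 0.275, limma).

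In NAD synthesis, Nadsyn1, the glutamine-dependent NAD synthetase that closes the tryptophan and nicotinic acid routes, did not overlap between control and SM (A_44_P515170). It read 8.50, 8.50 and 8.56 in the controls, 8.82, 9.05, 8.72 and 8.83 in SM, and 8.67, 8.82 and 8.55 in SM + MSTF. The log2 change in SM versus control was 0.34 ± 0.10 (SE), with an adjusted p of 0.141 (limma). Nmnat2, known mainly from neurons, had a log2 change of 0.36 in SM versus control (adjusted p = 0.248, limma). Its probe was dim, with a control mean of 4.77, and was well above background on 2 of 3 control arrays. Nt5e, the ecto-nucleotidase CD73, had log2 changes of -0.25 for SM and -0.30 for SM + MSTF against control (adjusted p = 0.233 and 0.448, limma).

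Of the NAD consumers, Parp1 lay above all controls on every SM array on both of its probes. SM and control did not overlap for 18.0% of all probes. The log2 changes of Parp1 were 0.20 and 0.27 in SM versus control (adjusted p = 0.321 and 0.235, limma). In SM + MSTF versus control they were 0.055 and 0.19 (adjusted p = 0.884 and 0.613, limma). Slc25a51, the mitochondrial NAD carrier, was lower in SM than in control on all 4 of its probes, with log2 changes of -0.18, -0.24, -0.28 and -0.42 from the brightest to the dimmest and adjusted p of 0.497, 0.328, 0.229 and 0.0964 (limma). Parp2 had a log2 change of -0.38 in SM + MSTF versus SM on its brighter probe (adjusted p = 0.200, limma) and of 0.072 on the other, so its probes disagreed in sign. The remaining genes at an unadjusted p under 0.05 were Tnks, a tankyrase (log2 change -0.25 in SM versus control), and the sirtuins Sirt5 (-0.47 in SM + MSTF versus control) and Sirt7 (0.35 in SM + MSTF versus SM). Cd38, an NAD glycohydrolase of immune cells, had log2 changes of 0.55 and 0.69 on its probes in SM + MSTF versus SM. Adjusted p for these 4 genes were 0.274, 0.461, 0.225, and 0.299 and 0.242 (limma).

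**Figure D4:**
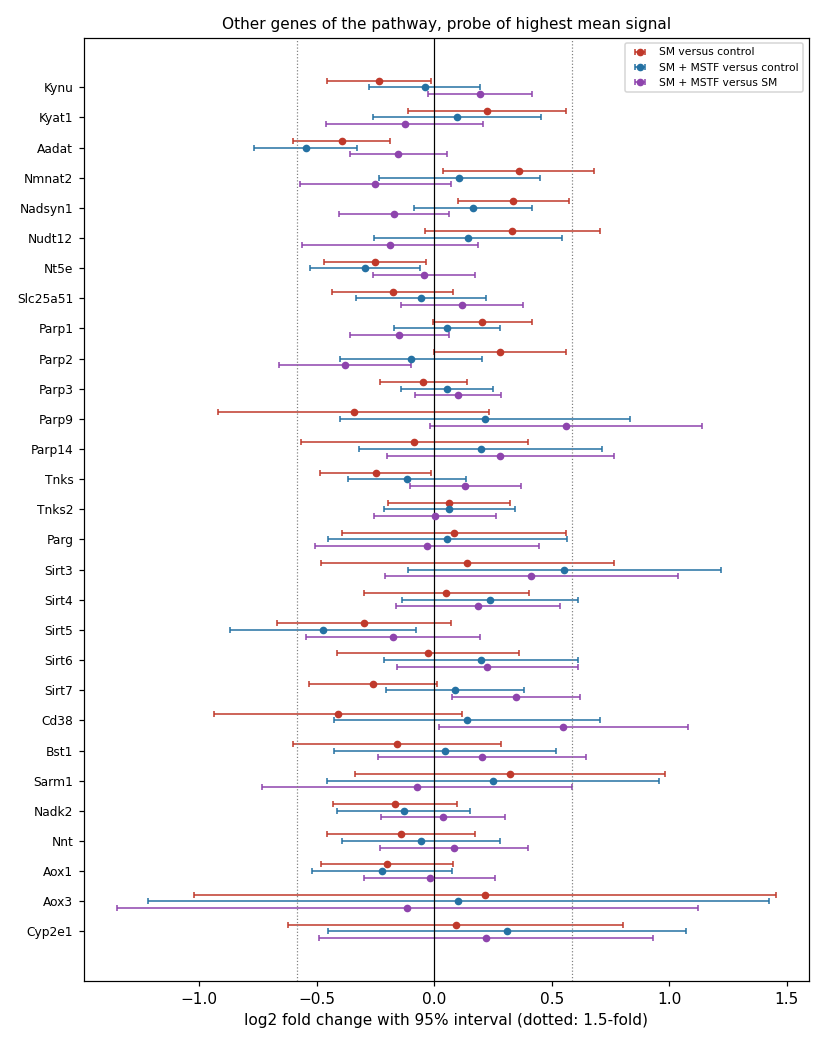
Log2 fold change (horizontal axis) of the 29 other pathway genes tested, 1 row per gene, in the 3 comparisons, with 95% intervals of the limma fit and dotted lines at 1.5-fold. Aadat lies below 0 in all 3 comparisons, and most intervals include 0.

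In bulk liver, fewer cells of a type and less RNA per cell cannot be told apart, so marker genes of other cell types are given beside these values. All 7 tested Kupffer cell and macrophage markers were lower in SM than in control (median log2 change -0.15) and all 7 were higher in SM + MSTF than in SM (median 0.45) and in control (median 0.31). Over all probes 55.9%, 46.4% and 50.9% were higher in these comparisons. None of the 7 was called by limma. At an unadjusted p under 0.05 limma counted 0, 4 and 0 of 7, beside 16.4%, 15.9% and 9.54% of all probes. Their summed intensity, mostly that of Clec4f, whose log2 change was 0.0064 in SM + MSTF versus control, was 51797 to 75194 in control, 34789 to 62441 in SM and 53734 to 70329 in SM + MSTF. In SM + MSTF replicate 3, the rat with the high Nampt signal, that sum was 70329, within the control range. In that rat the summed T cell and natural killer cell markers stood at 1789, the highest of the 10 arrays. The sum was 1145 to 1374 in control and 643 to 1482 in SM. Of these markers Prf1 (log2 signal 9.33), Cd3d (9.29), Gzmb (8.22) and Klrd1 (5.78) lay above all controls in that rat. Cd3g (7.13) lay below all controls (7.17 to 7.61), and Cd3e and Ncr1 lay within the control range, not well above background. Neutrophil markers of that rat summed to 738, beside 259 to 518 in control and 290 to 1563 in SM. Its endothelial markers summed to 3280, beside 2588 to 2747 in control and 2311 to 3372 in SM. This sum was mostly that of Lyve1 (log2 signal 11.58 in that rat). Cdh5 (7.51) also lay above all controls there, and Pecam1 (5.06) lay within the control range. Cxcr2, a neutrophil marker too dim to be tested, was well above background on that array alone (log2 signal 4.95). Klrd1, a natural killer cell receptor, was the single marker called: it fell by 1.22 on the log2 scale in SM versus control (adjusted p = 0.0277, limma) and was 1.15 higher in SM + MSTF than in SM (adjusted p = 0.0455, limma). It was not well above background on SM replicates 2 and 3, so its SM values rest partly on dim spots. Of 6 neutrophil markers, S100a8 and S100a9 were tested, with no call, and their summed intensity with the dimmer neutrophil markers was 259 to 518 in control, 290 to 1563 in SM and 327 to 850 in SM + MSTF. Of 4 B cell markers only Cd79b was tested, which was well above background on 2 of 4 SM arrays and 2 of 3 SM + MSTF arrays and was not called, and none of the 3 endothelial markers tested was called. The part of these cells in the values of the NAD and tryptophan genes was not tested.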

How the data were processed

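Liver RNA of 10 rats (3 control, 4 SM, 3 SM + MSTF) was hybridized by the authors to one-colour Agilent arrays designed on an older rat assembly, so no coordinates are given. Per the file headers the authors read the spots with Feature Extraction 10.7, and the deposited intensity of each spot is background-subtracted. The authors' deposited log2 values, quantile normalized in GeneSpring, served as an alternative.

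Control spots were dropped, as were the 0 to 4 spots of an array that the scanner software marked as not uniform. After quantile normalization and log2 transformation, replicate spots were averaged by probe (R 4.3.3, limma 3.58.1). Of 41012 probes (43379 spots per array), 17512 were named by accession through RefSeq (GRCr8), and 22991 were tested, those that passed the background mark throughout at least 1 group. A probe counted as above background when at least 0.5 of its spots did. A gene with several probes is given by the one of highest mean signal, with the others beside it.

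All 3 comparisons came from 1 limma fit (lmFit, eBayes) with Benjamini-Hochberg adjustment over all probes tested. A probe was called at an adjusted p under 0.05 and at least 1.5-fold, the fold minimum of the methods. The procedure was tested on simulated data, whose setting and outcome are not given here. Precision is limited by the number of arrays. Whether the signal over background also limits it was not tested. Whether rats of a group were handled together is not given in the sources used here, so p-values measure the spread between these rats.

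The genes and lists were chosen with earlier results of these data known. Named in the text are all of the 10 genes, pathway genes at an unadjusted p under 0.05, the 3 nearest probes of the 3 genes with the smallest F-test p (1 of these is not reported here), and marker lists as counts and sums. Parp1, Slc25a51, Ttr, Apoa1, Clec4f, Klrd1, Cd79b, Cxcr2, S100a8 and S100a9 were named after their values were seen. So were Prf1, Cd3d, Cd3e, Cd3g, Gzmb, Ncr1, Lyve1, Cdh5 and Pecam1. The alternatives were 75th percentile scaling, the deposited values, normexp (offset 50) in place of the scanner's background subtraction, other filters on dim probes, keeping the non-uniform spots, fitting each pair of groups alone, no fold minimum, the methods' t-test, slide or replicate number as a block, a gene's other probe and leaving out 1 array at a time. The authors' lists of fold changes and p-values were not used. Probe sequences were not used here.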

Additional observations from a re-analysis of the deposited data

Results flagged for a closer look

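Among the 4 SM arrays, Kynu, the kynureninase between Kmo and Haao in the long route, had 1 array far from the rest. SM replicate 2 read 15.07, the highest of its group, and the nearest SM array read 14.87. The gap was 0.946 of the whole range of the group, above Dixon's 95% critical value for 4 samples. This was 1 of 20 tests over the genes given here, and chance marks about 1 in 20. Whether that rat differed in biology or in measurement was not tested.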

How the results depend on the processing

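No gene of the 9 was called in any comparison, and this count stayed at 0 except for 1 in SM versus control by the methods' t-test (Acmsd) and 1 in SM + MSTF versus control with slide as a fixed block (Nampt). The count of 0 among the other pathway genes held in every alternative run. For 630 recomputed fold changes of the 9 genes, 23 had the opposite sign, 0 of them with an unadjusted p under 0.05 in either fit.

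Of these, SM + MSTF versus SM gave -0.12 for Tdo2 under 75th percentile scaling and -0.024 under normexp. With slide as a fixed block, SM + MSTF versus control gave -0.12 for Nmnat1, -0.12 for Haao and -0.031 for Kmo. No such fit was possible for the comparisons with SM, which share no slide. Leaving out each array in turn, the log2 change in SM versus control ran from -0.031 to 0.13 for Kmo and from -0.026 to 0.18 for Qprt. For SM + MSTF against control it ran from -0.20 to 0.097 for Qprt and from -0.032 to 0.16 for Kmo. For SM + MSTF against SM it ran from -0.32 to 0.25 for Tdo2, -0.13 to 0.081 for Nnmt, -0.083 to 0.11 for Kmo, -0.77 to 0.024 for Acmsd, -0.10 to 0.051 for Nmnat1 and -0.25 to 0.022 for Qprt. Without changing sign, the SM + MSTF versus control change ran, over all alternatives, from 0.12 to 2.19 for Nampt, from 0.052 to 1.04 for Tdo2 and from 0.015 to 0.81 for Acmsd. The adjusted F-test p of Aadat was 0.0573 with no filter on dim probes and 0.0435 to 0.133 with 1 array left out. The cause of these changes was not tested.

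The deviations of same-numbered arrays of different groups were at most weakly correlated (9 pairs, r from -0.0991 to 0.169). These r cannot exclude that the replicate numbers pair the rats, as each group has few arrays and their handling is not given. With the replicate number as a block, 0 of the 9 genes were called in each comparison, and in SM + MSTF versus SM the log2 change was 0.080 for Nnmt and -0.046 for Kmo. Over all probes the block lowered the number called from 553 to 53 between SM and control and from 290 to 64 between SM + MSTF and SM.

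The number of all probes called moved more than the genes here. In SM versus control it ran from 53 with the replicate block to 1131 by the methods' t-test, and, with 1 array left out, from 65 (control replicate 2) to 718 (SM + MSTF replicate 3). In SM + MSTF versus control it ran from 0 to 291 with slide as a fixed block, with 250 without SM + MSTF replicate 3, and in SM + MSTF versus SM from 13 to 863. All 10 probes were well above background on every array.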
